A study of Mus musculus with 12 samples.

Results

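Mitochondria keep a small genome of their own. The protein-coding genes on it that were followed here were 10 subunits of the respiratory chain and of ATP synthase, among 10481 genes in the deposited count table. They were taken by identifier, with no use of their measured values, and all 10 listed identifiers were present: mt-Nd1, mt-Nd2, mt-Nd3, mt-Nd4, mt-Nd5, mt-Cytb, mt-Co1, mt-Co2, mt-Co3 and mt-Atp6. The remaining mitochondrially encoded proteins, mt-Nd4l, mt-Nd6 and mt-Atp8, and the mitochondrial ribosomal RNAs were not analysed by name here.

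Ribosome profiling, the sequencing of the stretch of mRNA that a ribosome shields from nuclease, was carried out on brain and spinal cord of the Taiwanese mouse model of spinal muscular atrophy (SMA) at embryonic day 14.5. The SMA embryos were Smn-/-; SMN2tg/0 and lacked mouse Smn, and the controls were Smn+/-; SMN2tg/0, so the controls also had 1 disrupted Smn copy and every embryo had the human SMN2 transgene. Each of the 4 groups, control brain, SMA brain, control spinal cord and SMA spinal cord, held 3 libraries that the series describes as biological triplicates, and the p-values measure the spread between these libraries. These genotypes are the ones the paper states, while the deposited names of the control counts read WT. Smn itself was not analysed here, so the genotype of a library rests on its label.

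Mitochondrially encoded proteins are the hydrophobic core of the enzymes that pass electrons to oxygen and use the resulting proton gradient to make ATP. Each of those enzymes also needs many subunits that are encoded in the nucleus, translated by cytosolic ribosomes and imported. The mitochondrial mRNAs are cut from long polycistronic transcripts made from a shared promoter region, and they are translated inside the organelle by mitochondrial ribosomes, which differ from cytosolic ribosomes in size, in sedimentation and in their insensitivity to cycloheximide. The lysates in this study were made with cycloheximide, were spun to clear nuclei, debris and mitochondria, and gave their footprints from the cytosolic monosome fraction. The counts on the 10 genes are therefore the mitochondrial fragments that passed through a protocol built for cytosolic ribosomes, and how many of them came from translating mitochondrial ribosomes was not tested.

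All 10 genes lie on the same strand of the mouse mitochondrial chromosome (RefSeq, GRCm38.p6) and have no introns. The 5 mt-Nd genes encode membrane subunits of complex I, which takes electrons from NADH: mt-Nd1 (ENSMUSG00000064341) at chrMT:2751-3707, mt-Nd2 (ENSMUSG00000064345) at chrMT:3914-4951, mt-Nd3 (ENSMUSG00000064360) at chrMT:9459-9806, mt-Nd4 (ENSMUSG00000064363) at chrMT:10167-11544 and mt-Nd5 (ENSMUSG00000064367) at chrMT:11742-13565. mt-Cytb (ENSMUSG00000064370), the cytochrome b of complex III, lies at chrMT:14145-15288. The 3 mt-Co genes encode the catalytic core of complex IV, cytochrome c oxidase: mt-Co1 (ENSMUSG00000064351) at chrMT:5328-6872, mt-Co2 (ENSMUSG00000064354) at chrMT:7013-7696 and mt-Co3 (ENSMUSG00000064358) at chrMT:8607-9390. mt-Atp6 (ENSMUSG00000064357), the subunit that forms part of the proton channel of ATP synthase, lies at chrMT:7927-8607. The length deposited for mt-Atp6 was 637 bases against 681 in RefSeq, and those of mt-Nd4, mt-Nd1, mt-Nd2 and mt-Co3 were 7, 2, 2 and 1 bases shorter.

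The brain libraries held 3683842 to 9117017 counts and the spinal cord libraries 5162190 to 12793955. A single mitochondrially encoded gene received 42 to 6197 counts in a library, and the 95% Wilson interval of the summed share of the 10 genes was never wider than 4.40% of its value to either side, for counting error alone. The tissue labels were checked against markers. The 2 forebrain and midbrain markers followed of 14, Otx2 and Lhx2, summed to 244 to 284 normalized CPM (counts relative to library size, scaled by the trimmed mean of M-values) in brain and 9.90 to 79.5 in spinal cord, and 6 of 18 spinal cord markers, all Hox genes, summed to 331 to 604 in spinal cord and 1.75 to 4.46 in brain.

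The summed counts of the 10 genes were highest in the first spinal cord library of each genotype. Without the scaling factors, control brain libraries 1, 2 and 3 had summed CPM of 693, 533 and 744 (657 ± 110, SD, n = 3) and SMA brain libraries 531, 550.3 and 539 (540.0 ± 9.60, SD, n = 3). Control spinal cord libraries 1, 2 and 3 had 2443, 597 and 956 (1332 ± 979, SD, n = 3) and SMA spinal cord libraries 2266, 539 and 345 (1049.9 ± 1058, SD, n = 3). The 3 SMA brain libraries lay within the range of the control brain libraries or just below it, close to control brain library 2. The spread within each spinal cord group was larger than any difference between the groups.

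Compared per kilobase of gene, the mean levels of the complex IV, complex III and ATP synthase genes stood above those of the complex I genes. On the mean over the 12 libraries, mt-Co1 had 125 normalized CPM per kb, mt-Atp6 120.2, mt-Co2 114, mt-Cytb 96.9, mt-Co3 92.6, mt-Nd5 71.8, mt-Nd4 67.6, mt-Nd3 59.5, mt-Nd2 58.6 and mt-Nd1 54.5. Many neighbours in this order were not separated in single libraries: mt-Co1 exceeded mt-Atp6 in 9 of 12 libraries, mt-Atp6 exceeded mt-Co2 in 7, mt-Cytb exceeded mt-Co3 in 6 and mt-Nd4 exceeded mt-Nd3 in 6. The clearest steps were from mt-Co2 to mt-Cytb and from mt-Co3 to mt-Nd5, each kept in 11 of 12 libraries. The order also changed with the library, with mt-Nd5 at ranks 2 to 8 and mt-Co1 at ranks 1 to 6, and in control spinal cord library 1 mt-Nd5 (258 normalized CPM per kb) and mt-Nd4 (239) lay above mt-Co1 (231) and mt-Co3 (219.8). Over the whole table, 451 of 10481 genes had a higher mean level per kb than mt-Co1 and 1484 had a higher one than mt-Nd1.

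**Figure D1:**
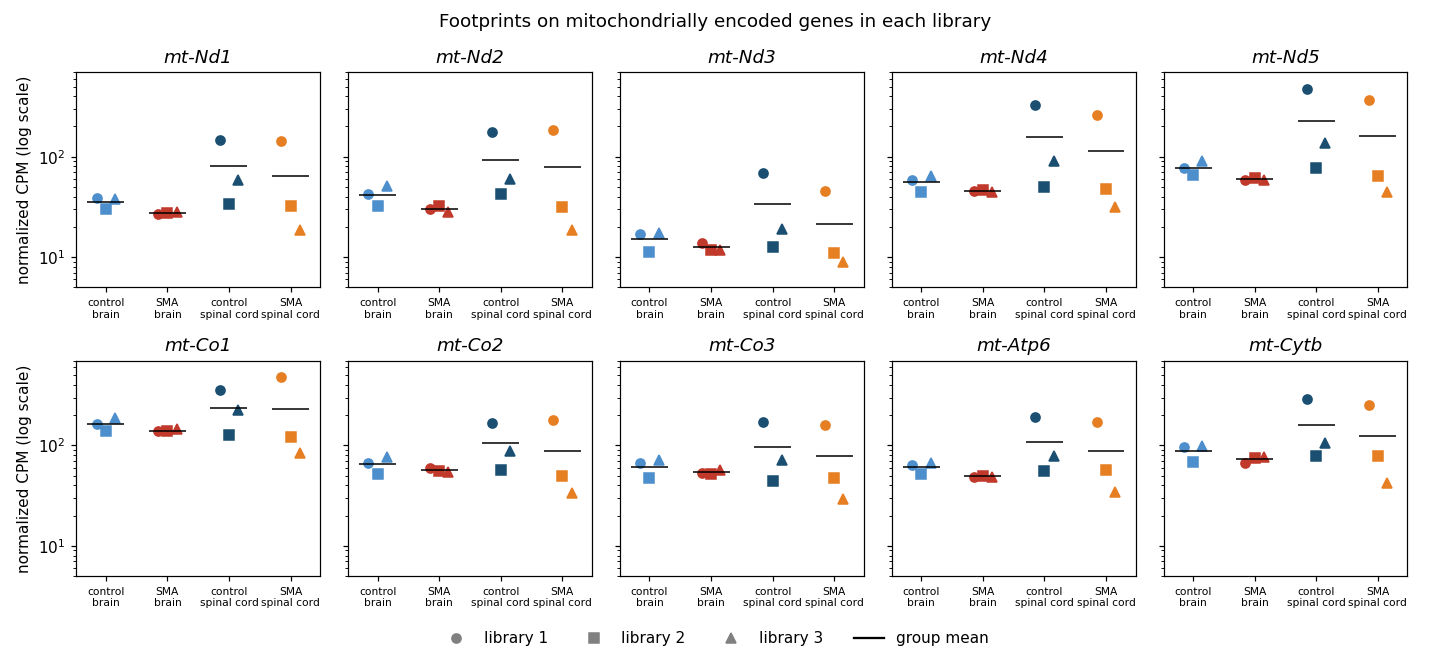
Normalized CPM (log scale) of the 10 mitochondrially encoded genes in the 12 libraries, by group, with library 1 as a circle, library 2 as a square, library 3 as a triangle and the group mean as a line. The 3 SMA brain libraries sit close together in every panel, and library 1 of both spinal cord groups stands above the other 4 spinal cord libraries for all 10 genes.

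The first comparison asked whether occupancy of these genes differed between SMA and control brain. All 10 genes had a lower fitted level in SMA brain, by log2 fold changes of -0.43 (mt-Nd2) to -0.18 (mt-Co3) with a median of -0.28, where the median of all 10481 genes was 0.00 and 49.1% of them were below 0. None of the 10 passed the thresholds that the study set for single genes, a log2 fold change of 0.5 or more in size, an unadjusted p below 0.05 and a mean CPM of 0.05 or more, which 1.53% of all genes passed. At the lower fold change limit of 0.3 that the study used for pathway analysis, with the same limit on p, 4 of the 10 passed, all lower in SMA (mt-Nd1, mt-Nd2, mt-Nd5 and mt-Atp6), against 3.76% of all genes and 2.57% in the lower direction. After Benjamini-Hochberg adjustment over all genes in edgeR's quasi-likelihood test, 0 of the 10 passed, with adjusted p-values of 0.902 to 0.918, while 4 had an unadjusted p below 0.05 in edgeR (5.05% of all genes) and 2 in DESeq2 (3.05%).

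Among the complex I genes, mt-Nd5, a proton-pumping membrane subunit, had 77.9, 65.1 and 90.0 normalized CPM in control brain libraries 1, 2 and 3 and 58.5, 61.8 and 58.3 in the SMA brain libraries. Its groups did not overlap, and the difference was -0.36 in log2 units (standard error 0.13, unadjusted p = 0.0146, adjusted p = 0.902, edgeR). mt-Nd1, which lies where the membrane arm of complex I meets its matrix arm, had 38.8, 30.5 and 37.6 normalized CPM in control brain and 26.8, 27.6 and 27.9 in SMA brain. These groups did not overlap either, with a log2 value of -0.36 (standard error 0.14, unadjusted p = 0.0203, edgeR). mt-Nd2 had 42.3, 31.9 and 50.5 normalized CPM in control brain and 30.1, 32.5 and 28.4 in SMA brain, a log2 fold change of -0.43 (standard error 0.16, unadjusted p = 0.0211, edgeR). Control library 2 lay below the highest SMA library for mt-Nd2, so those groups overlapped. mt-Nd3 and mt-Nd4 had values of -0.28 and -0.28 with unadjusted p-values of 0.193 and 0.0676 in edgeR.

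The genes of the other complexes gave the same sign. mt-Atp6, whose counts nearly matched those of another gene in the table, had 64.5, 51.9 and 67.3 normalized CPM in control brain and 48.7, 49.9 and 48.8 in SMA brain, which did not overlap, with a log2 value of -0.30 (standard error 0.13, unadjusted p = 0.0324, edgeR). mt-Cytb had 97.5, 68.1 and 98.6 normalized CPM in control brain and 67.3, 75.5 and 77.2 in SMA brain, which overlapped, with a log2 fold change of -0.25 (95% interval -0.55 to 0.05). mt-Co1 had 162, 140.0 and 189 normalized CPM in control brain and 138, 139 and 145.3 in SMA brain. Its log2 fold change was -0.20 (95% interval -0.44 to 0.04), and those of mt-Co2 and mt-Co3 were -0.18 and -0.18. In all, 3 of the 10 genes had every SMA brain library below every control brain library, against 7.18% of all genes.

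The size of the brain difference rested on single control libraries. Without control brain library 2 the median was -0.41 and 9 genes passed the limit of 0.3. In that fit mt-Nd2 passed the limit of 0.5, against 2.1% of all genes. Without control brain library 3 the median was -0.17 and 0 passed either limit. Shares of all genes at the limit of 0.3 were not computed with a library left out. Without control brain library 1 the median was -0.24 and 2 passed the limit of 0.3, and with the spread estimated over all 12 libraries 0 passed it. The 10 genes come from the same precursor transcripts and the same libraries, so their agreement in sign is not 10 separate observations. In a whole tissue, fewer cells of a type with many mitochondria and fewer mitochondrial mRNAs per cell cannot be told apart. How much mitochondrial material passed the spins and the monosome fraction in each library was not measured either.

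**Figure D2:**
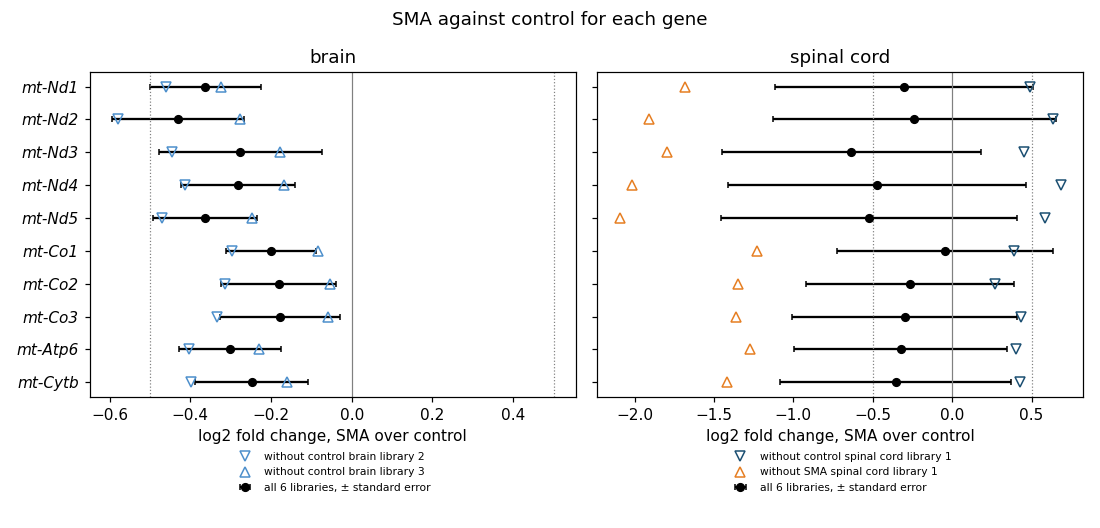
Log2 fold change of SMA over control for each gene in brain (left) and spinal cord (right), with black points and bars for all 6 libraries ± standard error and open triangles for fits without 1 library; dotted lines mark 0.5 in either direction. All 10 brain values lie between -0.43 and -0.18, and the spinal cord medians run from -1.55 without SMA library 1 to 0.45 without control library 1.

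In spinal cord the same comparison gave no call in either direction. All 10 genes again had a lower fitted level in SMA, by -0.63 (mt-Nd3) to -0.04 (mt-Co1) with a median of -0.32, against -0.01 for all genes, of which 51.1% were below 0. The standard errors were 0.66 to 0.94, and 0 of the 10 passed the thresholds of the study, against 0.983% of all genes. The adjusted p-values were 0.826 to 0.987 in edgeR's quasi-likelihood test, and 0 had an unadjusted p below 0.05 in edgeR (6.99% of all genes) or in DESeq2 (7.02%). The 95% interval of mt-Nd5 ran from -2.73 to 1.68 and that of mt-Co1 from -1.65 to 1.56, so differences of several fold in either direction were not detectable with these libraries.

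The first library of each genotype stood apart from the other 4. mt-Nd5 had 470.3, 77.9 and 136 normalized CPM in control spinal cord libraries 1, 2 and 3 and 369, 64.1 and 44.5 in the SMA libraries. mt-Nd4, another proton-pumping subunit of complex I, had 328, 50.5 and 91.0 in control and 260, 47.4 and 31.6 in SMA spinal cord. mt-Co1 had 357, 126 and 225 normalized CPM in control and 486, 121 and 83.6 in SMA spinal cord. In both genotypes library 1 was the highest for each of these genes, and the groups overlapped for all 10, where 6.29% of all genes had every SMA library below every control library. Over the 10 genes, control library 1 was 2.83 to 6.50 times control library 2 and 1.59 to 3.62 times control library 3, and SMA library 1 was 2.95 to 5.87 times SMA library 2 and 4.96 to 9.81 times SMA library 3.

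Few other genes of the table did the same. Both first libraries lay above all 4 other spinal cord libraries for 10 of the 10 genes and for 14% of the 9309 genes with a mean of at least 5 normalized CPM. With the lower of the first libraries over 1.5 times the highest of the others, the counts were 10 of the 10 genes and 0.623% of the 9309, and over 2 times they were 8 of the 10 and 0.333%. This grouping of the libraries was chosen after their values had been seen, and it is given as a description. Other values also moved with the first libraries. The summed forebrain and midbrain markers were 79.5, 24.7 and 20.6 normalized CPM in control spinal cord libraries 1, 2 and 3 and 36.2, 9.90 and 23.1 in SMA, so each first library was 1.57 to 3.86 times its companions, while the summed spinal cord markers were 0.548 to 0.800 times. The 4 neuron markers followed of 12 were lower in the first libraries, at 0.799 to 0.879 times the sum in the others of their genotype. The 10 genes summed to 542 to 763 normalized CPM in the brain libraries. They summed to 2372 in control and 2245 in SMA spinal cord library 1. The 2 erythroid markers followed of 11, Slc4a1 and Epor, summed to at most 10.9 normalized CPM in any library and were highest in the first library of each spinal cord group, and the only followed blood vessel or meningeal marker of 9, Col1a1, summed to 8.18 to 53.4 in spinal cord and was not highest there. The part of tissue makeup in the high mitochondrial counts was not tested.

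The spinal cord comparison depended on which library was left out. Without control library 1 all 10 genes were higher in SMA, with a median of 0.45 and 0 past the thresholds. Without SMA library 1 all 10 were lower, with a median of -1.55 and 6 past the thresholds, against 3.7% of all genes. Without both first libraries, a setting added after the data had been seen, the 10 values ran from -1.04 (mt-Nd2) to -0.55 (mt-Atp6) with a median of -0.81. In that setting 7 genes passed, the 5 mt-Nd genes with mt-Co1 and mt-Co2, against 1.93% of all genes in the lower direction, and the smallest adjusted p was 0.437 (edgeR). Without SMA library 3, the lowest spinal cord library, the median was 0.08, and without SMA library 2 it was -0.07.

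The tissue comparison asked whether brain and spinal cord of the same genotype differed, and it used the same libraries as the genotype comparisons. In control embryos all 10 genes were lower in brain than in spinal cord, by log2 fold changes of -1.57 (mt-Nd5) to -0.54 (mt-Co1) with a median of -1.01. Of the 10, 4 passed the thresholds of the study (mt-Nd1, mt-Nd2, mt-Nd4 and mt-Nd5), against 31.1% of all genes and 17.4% in the lower direction, and the adjusted p-values of the 10 were 0.0633 to 0.261 in edgeR's quasi-likelihood test. The brain and spinal cord libraries overlapped for all 10 genes, where 26.7% of all genes lay wholly lower in brain. Control spinal cord library 2 lay at the level of the brain libraries, for mt-Nd5 at 77.9 normalized CPM in a brain range of 65.1 to 90.0. Without control spinal cord library 1 the median was -0.15 and 0 passed, against 29.8% of all genes. Without library 2 all 10 passed, against 32.5% of all genes, and without library 3 there were 7, against 30.5%. So no call between the tissues of control embryos held with each library left out.

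In SMA embryos the 10 genes were lower in brain by -1.45 (mt-Nd5) to -0.57 (mt-Co3) with a median of -0.84. With libraries paired by number, the values were -0.80 to -0.20 with a median of -0.51 and 0 past the thresholds. Same-numbered libraries correlated at 0.15 to 0.41 here, but unlike-numbered libraries 2 and 3 at 0.17 and 0.24. The numbers therefore do not establish a pairing. The libraries again overlapped for all 10, where 26% of all genes lay wholly lower in brain. None passed the thresholds, against 29.9% of all genes, and the adjusted p-values were 0.149 to 0.438 (edgeR). Without SMA spinal cord library 1 all 10 were higher in brain, with a median of 0.29, and mt-Co3 passed, against 27.1% of all genes. Without SMA spinal cord library 3 the median was -1.22 and 9 passed in the opposite direction, against 29.9% of all genes. Without library 2 the median was -1.11 and 2 passed, against 32.8%. These shares count both directions.

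Whether the SMA effect differed between the tissues was tested as an interaction over all 12 libraries. The difference of the effects, spinal cord minus brain, ran from a log2 value of -0.33 (mt-Nd3) to 0.23 (mt-Nd2), with 6 genes below 0 and 4 above. None passed the thresholds, against 1.08% of all genes, the unadjusted p-values were 0.736 to 0.993 and every adjusted p was 1 in edgeR's quasi-likelihood test. The standard errors of 0.74 to 1.06 left 95% intervals from -2.48 to 2.16 for mt-Nd4 and from -1.68 to 1.57 for mt-Co2. Without SMA spinal cord library 1 the median was -1.22 and 3 genes passed, mt-Nd5, mt-Co1 and mt-Co2, against 2.36% of all genes. Without control spinal cord library 1 the median was 0.74 and 0 passed.

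The share of each gene among the counts of the 10 does not depend on library size or on genes outside the 10. A lower share of some of the 10 is met by a higher share of others, so the shares are not separate observations. mt-Co1 took the most in brain, 24.7% ± 1.19 of the counts in control and 25.6% ± 0.557 in SMA (SD, n = 3), and mt-Nd3, the shortest, took 2.27% ± 0.200 and 2.28% ± 0.255. Summed by complex, the 5 complex I genes held 33.9%, 33.9% and 34.1% of the counts in control brain libraries 1, 2 and 3 and 32.2%, 32.7% and 30.9% in SMA brain. The 3 complex IV genes held 42.7%, 44.0% and 44.1% in control and 46.4%, 44.6% and 46.3% in SMA brain. The ratio of complex I to complex IV counts was 0.794, 0.769 and 0.773 in control brain and 0.694, 0.732 and 0.667 in SMA brain. The groups did not overlap in this ratio, which was formed after the values had been seen and is given without a test. Gene by gene, the shares of mt-Nd2 (6.21% ± 0.369 in control and 5.53% ± 0.371 in SMA brain) and mt-Nd5 (11.7% ± 0.389 and 10.8% ± 0.331) gave an exact permutation p of 0.1, two-sided, the smallest that 3 libraries against 3 allow, and 0.5 after Benjamini-Hochberg adjustment over the 10 genes. The other 8 shares in brain gave exact p-values of 0.2 to 1. With counts divided by gene length, the exact permutation p was 0.1 for mt-Nd2 and 0.2 for mt-Nd5.

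In spinal cord the first libraries differed from the rest in makeup as well as in amount. The complex I genes held 50.2% of the counts in control spinal cord library 1 and 44.6% in SMA spinal cord library 1, and 34.5% to 38.9% in the other 4 spinal cord libraries. The ratio of complex I to complex IV counts was 1.71, 0.956 and 0.942 in control spinal cord libraries 1, 2 and 3 and 1.22, 0.855 and 0.837 in the SMA libraries. Within each genotype library 1 was the highest, and the groups overlapped. The shares of single genes in SMA against control spinal cord gave exact permutation p-values of 0.4 to 0.9, two-sided.

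**Figure D3:**
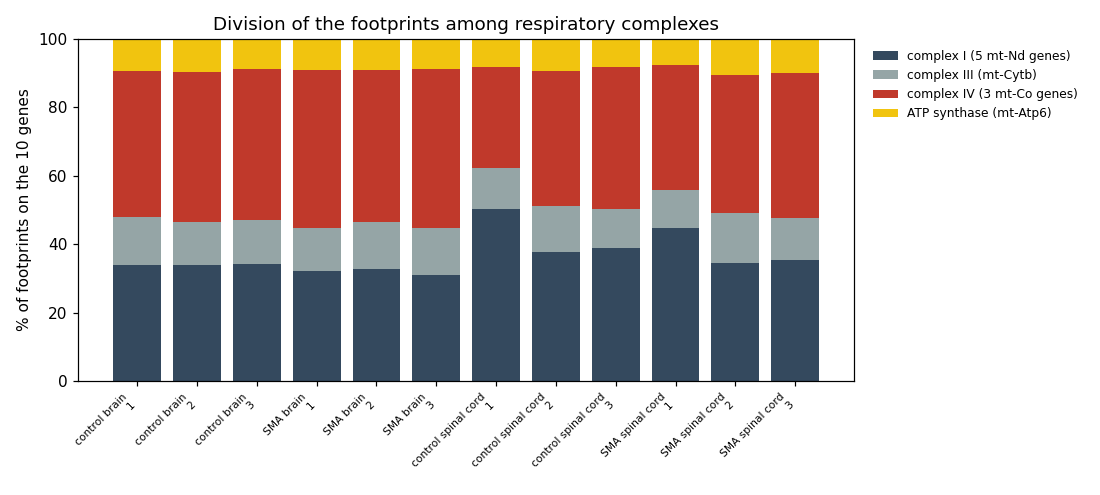
Percent of the counts on the 10 mitochondrially encoded genes that fell on genes of complex I, complex III, complex IV and ATP synthase, 1 bar for each of the 12 libraries. Complex I takes 50.2% in control spinal cord library 1 and 44.6% in SMA spinal cord library 1, against 30.9% to 38.9% in the other 10 libraries.

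The nuclear genes of the same enzymes, translated on cytosolic ribosomes, did not follow the mitochondrially encoded genes. Of 80 listed nuclear subunits of complexes I to V, 28 could be followed by name. In brain 23 of the 28 had a higher fitted level in SMA and 5 a lower one, with a median of 0.09 on the log2 scale. In spinal cord 27 were higher and 1 lower, with a median of 0.18 that was 0.16 without the first spinal cord libraries. Of all genes, 49.1% were lower in SMA brain and 51.1% in SMA spinal cord. None passed the limit of 0.5. At the limit of 0.3, Ndufs6, an accessory subunit of complex I, rose in SMA brain (0.31, standard error 0.12), and Ndufa11, another complex I subunit (0.33, standard error 0.13), and Atp5g3, a gene for the rotor ring of ATP synthase (0.31, standard error 0.12), rose in SMA spinal cord, each with an adjusted p of at least 0.684 (edgeR). These 3 were named after their values had been seen, and 1 and 2 of 28 stand beside 3.76% of all genes past this limit in brain and 4.19% in spinal cord.

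The most abundant nuclear subunits gave small values of the same sign. Atp5f1, in the stalk of ATP synthase, had log2 fold changes in brain and cord of 0.06 (standard error 0.09) and 0.11 (standard error 0.08), Cyc1, the cytochrome c1 of complex III, 0.09 (standard error 0.09) and 0.21 (standard error 0.08), and Cox5a of complex IV 0.10 (standard error 0.10) and 0.21 (standard error 0.10). The summed level of the 28 subunits was 3551, 3848 and 3874 normalized CPM in control brain libraries 1, 2 and 3 and 3952, 3847 and 4066 in SMA brain. In spinal cord it was 3386, 3773 and 3903 in control and 3954, 4371 and 4234 in SMA. The SMA and control libraries overlapped in brain and did not in spinal cord, where 8.1% of all single genes also lay wholly higher in SMA. In both genotypes the first spinal cord library, the highest for the mitochondrially encoded genes, was the lowest for the nuclear subunits.

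**Figure D4:**
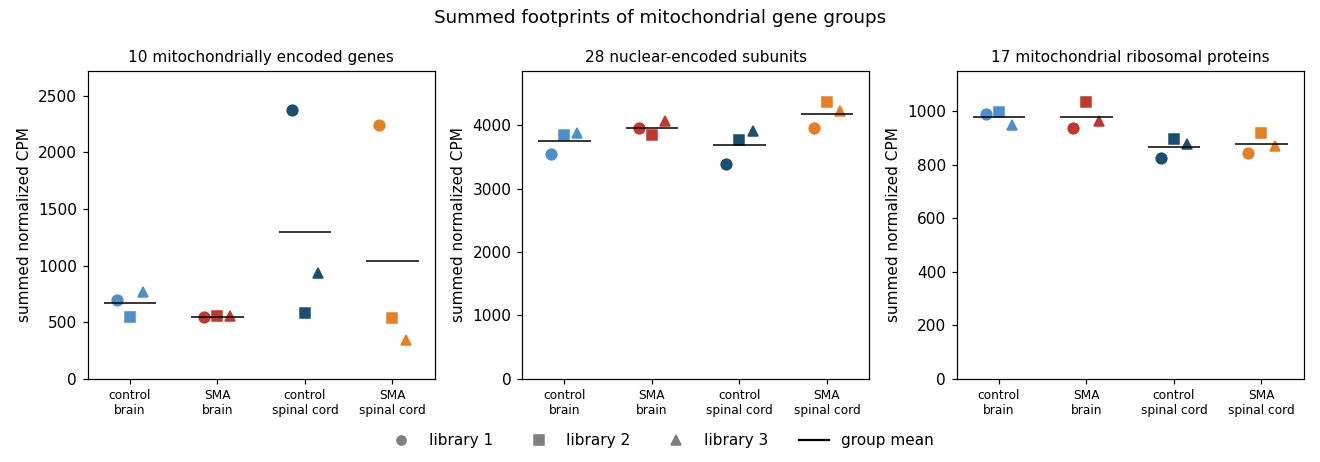
Summed normalized CPM of the 10 mitochondrially encoded genes (left), of 28 nuclear-encoded subunits of complexes I to V (middle) and of 17 mitochondrial ribosomal proteins (right) in the 12 libraries, by group, with the group mean as a line. Library 1 of the spinal cord groups is the highest point on the left and the lowest of its group in the middle and right panels.

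Proteins that read, copy and translate the mitochondrial genome were also followed. Of 34 listed genes of mitochondrial DNA maintenance, transcription and RNA handling, 9 had names, of which 7 were lower in SMA brain (median -0.09) and 9 were lower in SMA spinal cord (median -0.19, and -0.16 without the first spinal cord libraries), with 0 past either limit. Tbrg4, which takes part in mitochondrial RNA handling, had the lowest value of the 9 in brain, -0.55 (standard error 0.27, unadjusted p = 0.0612, edgeR), and -0.10 (standard error 0.20) in cord. Tfam, which packages mitochondrial DNA and starts its transcription, had -0.29 (standard error 0.12, unadjusted p = 0.0334, adjusted p = 0.902, edgeR) in brain and -0.23 (standard error 0.17) in cord, where the lowest were Pnpt1, an RNA-degrading exoribonuclease, at -0.33 (standard error 0.19) and Mterf3 at -0.31 (standard error 0.17). These 4 were also named after their values had been seen. Elac2, the enzyme that cuts the 3′ end of mitochondrial tRNAs and the most abundant of the 9, had -0.05 (standard error 0.12) and -0.02 (standard error 0.12).

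Of 78 mitochondrial ribosomal proteins 17 were followed, with medians of -0.03 in brain and -0.04 in spinal cord. Among them only Mrpl40, a protein of the large subunit, passed the limit of 0.3, in brain (-0.35, standard error 0.14), against 2.57% of all genes in the lower direction. Of 17 translation and insertion factors 7 were followed, with medians of -0.04 and -0.12 and 0 past either limit. Of 25 markers of mitochondrial mass 15 were followed, with medians of 0.05 in brain and 0.13 in spinal cord. Timm44, which ties the import motor to the inner membrane channel, passed the limit of 0.3 in both tissues, with -0.47 (standard error 0.15) for brain and -0.35 (standard error 0.14) for cord, as the only 1 of the 15 where 2.57% and 2.14% of all genes passed in the lower direction. Mdh2, the malate dehydrogenase of the matrix and the most abundant of the 15, had 0.15 (standard error 0.09) and 0.24 (standard error 0.06). The summed mass markers in the first spinal cord libraries were 0.924 to 0.986 times those in the others of their genotype. For single mitochondrially encoded genes these ratios ran from 1.59 to 9.81. The mass markers are nuclear genes, and the amount of mitochondria in the lysates was not tested.

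The 10 genes varied together across the libraries. The distance of a gene from their mean profile was the root mean square difference of its centred log2 CPM over the 12 libraries. For the 10 genes it was 0.120 (mt-Cytb) to 0.246 (mt-Nd5). The median of the 9309 genes with a mean of at least 5 normalized CPM was 0.851. Each of the 10 enters that mean profile, so part of their nearness was fixed in advance. Only 8 genes outside the 10 were nearer than mt-Nd5, and the 5 nearest had distances of 0.116 to 0.181. None of the 8 could be named from the tables at hand, and none of the followed nuclear subunits was among them.

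Several of these neighbours carried almost the same counts as a mitochondrially encoded gene. ENSMUSG00000102070 had 0.993 to 1 times the counts of mt-Co2 in each library, equal in 5 of 12, with a deposited length of 681 bases against 684. ENSMUSG00000101111 had 0.955 to 0.993 times the counts of mt-Co3, and both were listed with 783 bases. The nearest genes to mt-Atp6 and mt-Nd3 had 0.943 to 0.986 and 0.870 to 1.02 times their counts. Agreement within 10% in all 12 libraries with some other gene was found for 3 of the 10 genes, mt-Co2, mt-Co3 and mt-Atp6, against 6.79% of the 9309 genes, and within 1% for mt-Co2, against 0.247%. The nuclear genome is known to carry copies of mitochondrial DNA, and the authors kept reads with up to 5 alignments. The counts of mt-Co2, mt-Co3, mt-Atp6 and mt-Nd3 are therefore uncertain as counts of the mitochondrial locus alone. Another of the 8 genes nearest in profile was listed with 1545 bases, as was mt-Co1. Whether the remaining mitochondrially encoded genes share reads with other loci was not tested. The sequences of these genes were not compared here.

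**Figure D5:**
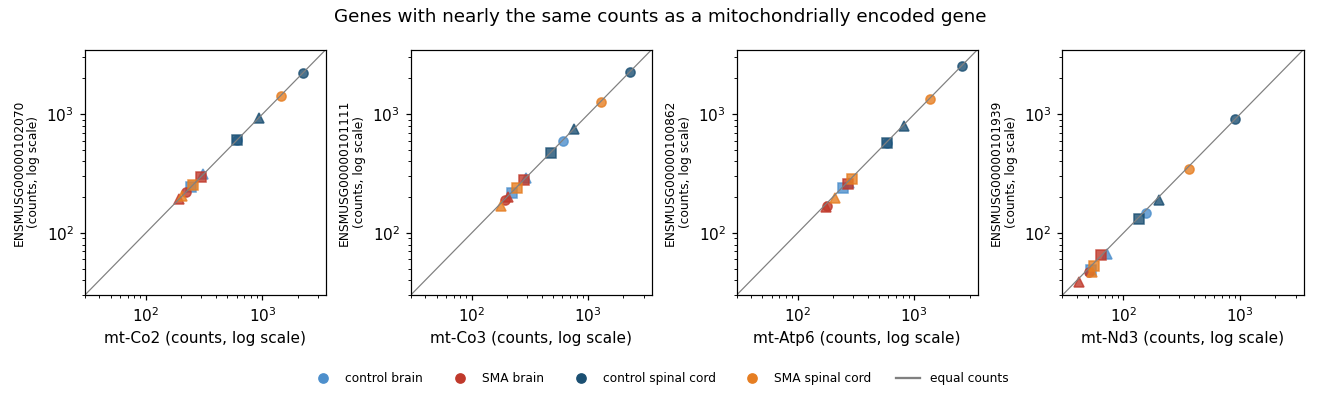
Counts of 4 unnamed genes (vertical, log scale) against the counts of mt-Co2, mt-Co3, mt-Atp6 and mt-Nd3 (horizontal, log scale) in the 12 libraries, coloured by group, with a grey line at equal counts. All points lie on or just beside the line, with ratios of 0.870 to 1.02.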

How the data were processed

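The authors deposited a table of raw counts of ribosome footprints for 10481 genes in 12 libraries, with gene lengths. Reads were trimmed with cutadapt 4.1, those under 15 nucleotides or on rRNA or tRNA were dropped, and the rest were aligned with STAR 2.5.3a to GRCm38.p6 with up to 5 alignments kept, per the submitters' processing notes and the methods. Duplicate reads at 1 position were removed, and genes below an FPKM quantile in all libraries of a condition were left out. The counting tool was not given in the sources used here.

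Counts were normalized by the trimmed mean of M-values and tested with edgeR 4.0.16 (quasi-likelihood, two-sided, R 4.3.3) over the whole table, each comparison within its own 6 libraries and the interaction over 12. The thresholds of the study were used to call a gene: mean CPM from 0.05, log2 fold change from 0.5 in size and unadjusted p under 0.05. Log2 CPM for profiles used a prior count of 2. Shares of counts were compared by exact permutation tests. The alternatives were library size alone, upper-quartile factors, factors without the 10 genes, a loess trend on counts per base (span 0.5) as offset, filterByExpr, robust estimation, 1 fit over 12 libraries, DESeq2 1.42.0, the replicate number as a block and each library left out. The fits were tested on simulated data. Figures were drawn with matplotlib 3.10.9 in Python 3.11.15.

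The 10 genes were named by identifier, and 1999 of 10481 genes could be named through the part of the study's supplementary table at hand. The named genes were the 10, the 3 smallest p-values past the thresholds and the most abundant member of each list, and the 5 nearest profiles, of which 2 are printed by identifier. One listed brain marker is not reported here and was left out of its list. Lists of muscle and peripheral nerve markers had 0 followed members. Followed neuron and progenitor markers numbered 4 each, with spinal cord medians of 0.18 and -0.09. The genes and lists were chosen with earlier results of these data known. Same-numbered libraries were checked for shared deviations over genes. In SMA brain and spinal cord all 3 correlations were above 0.1 (0.15 to 0.41), so a paired fit is also given for that comparison. Unlike-numbered libraries 2 and 3 correlated there at 0.17 and 0.24, so the pairing is uncertain. In the other comparisons the numbers were not taken as paired.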

Additional observations from a re-analysis of the deposited data

How the results depend on the processing

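With 3 libraries a group, the summed levels in SMA brain lay within each other's 95% counting intervals, and those of the other groups did not. The brain direction was the same under all alternatives for all 10 genes. The number of genes past the thresholds in brain was 4 with a fold change limit of 0.3 (3.76% of all genes). It was 0 to 1 with single libraries left out (1.61% to 2.6%). In spinal cord it was 0 to 6 with single libraries left out (0.553% to 3.7%). It was 7 without both first libraries (2.6%), a setting added after the data had been seen. Between tissues in control it was 8 with a loess trend on counts per base as an offset (28% of all genes) and 1 with DESeq2 (29.1%). It was 0 with robust estimation (30.4%), 0 in 1 fit over all 12 libraries (30.2%) and 0 at an adjusted p below 0.05 (38.4%, edgeR). With single libraries left out it was 0 to 10 (26.7% to 33%), where the median ran from -1.35 to -0.15. Between tissues in SMA it was 0 to 9 (26.7% to 32.8%), with a median of -1.22 to 0.29. For the interaction it was 0 to 3 (0.887% to 2.36%), with a median of -1.22 to 0.74. The cause was not tested.

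The replicate block, which pairs libraries by number, gave 2 genes past the thresholds in spinal cord (mt-Nd3 and mt-Nd5), against 1.98% of all genes. Between tissues in control it gave 3, against 32%. It left the counts at 0 in brain (1.67% of all genes), between tissues in SMA (31.3%) and for the interaction (1.21%). Same-numbered libraries correlated at -0.16, 0.03 and 0.04 in brain and 0.28, 0.72 and -0.42 in spinal cord. In the tissue comparison in SMA the block moved the median from -0.84 to -0.51. With the block the interaction changed sign for mt-Nd1 (-0.11), mt-Nd2 (-0.0148) and mt-Atp6 (-0.07615). That of mt-Atp6, 0.00676, was also -0.0213 with library size alone, -0.0175 with upper-quartile factors and -0.05967 with the trend taken out. Without both first spinal cord libraries the interaction was -0.52 for mt-Nd1, -0.60 for mt-Nd2, -0.59 for mt-Co1 and -0.25 for mt-Atp6.

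With single libraries left out, signs turned. The spinal cord values ran from -1.68 to 0.49 for mt-Nd1, -1.91 to 0.64 for mt-Nd2, -1.80 to 0.45 for mt-Nd3, -2.01 to 0.69 for mt-Nd4, -2.09 to 0.59 for mt-Nd5, -1.23 to 0.39 for mt-Co1, -1.35 to 0.27 for mt-Co2, -1.36 to 0.44 for mt-Co3, -1.27 to 0.40 for mt-Atp6 and -1.42 to 0.43 for mt-Cytb. Between tissues in control, mt-Co3 ran from -0.999 to 0.0710. In SMA the tissue values ran from -1.71 to 0.11 for mt-Nd1, -1.86 to 0.28 for mt-Nd2, -1.20 to 0.34 for mt-Nd3, -1.79 to 0.21 for mt-Nd4, -1.89 to 0.14 for mt-Nd5, -1.13 to 0.46 for mt-Co1, -1.04 to 0.44 for mt-Co2, -0.96 to 0.51 for mt-Co3, -1.24 to 0.11 for mt-Atp6 and -1.19 to 0.29 for mt-Cytb. The interaction ran from -1.28 to 0.88 for mt-Nd1, -1.44 to 1.09 for mt-Nd2, -1.49 to 0.76 for mt-Nd3, -1.70 to 0.99 for mt-Nd4, -1.70 to 0.97 for mt-Nd5, -0.995 to 0.62 for mt-Co1, -1.14 to 0.47 for mt-Co2, -1.15 to 0.64 for mt-Co3, -0.94 to 0.73 for mt-Atp6 and -1.14 to 0.70 for mt-Cytb.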
